A study of Mus musculus with 5 samples.

Results

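RNA polymerase II (Pol II) was profiled by CUT&Tag in splenic regulatory T (Treg) cells, and the peaks described here are those that sat on protein-coding sequence within gene bodies. A merged peak was included when it lay on chromosomes 1 to 19, was under 5000 bp long and had its midpoint in a coding (CDS) exon of a GENCODE protein-coding gene. The midpoint also had to lie more than 3 kb from every transcription start site (TSS) of the basic transcript set and more than 1 kb from the 3′ end of that gene. This rule gave 1763 coding-exon peaks of 56615 merged peaks, in 1344 genes. It used positions and no counts. Of 1959 peaks with a midpoint in coding sequence and clear of every basic TSS, 152 were left out for lying within 1 kb of the 3′ end and 44 for length or chromosome. 22676 peaks that met the same limits in gene bodies but had their midpoint outside coding exons, called other gene-body peaks below, were used for comparison.

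Control mice (Ctrl, the genotype Foxp3CreSetd2flox/+) carried Cre and YFP driven by Foxp3 with 1 floxed Setd2 allele, and knockout mice (KO, Foxp3CreSetd2flox/flox) carried the same Cre with both alleles floxed. Both genotypes therefore expressed Cre in Treg cells, and the controls kept 1 unfloxed Setd2 allele. All were C57BL/6 mice of 8 weeks, of pooled sex, given IL-2c (1 µg IL-2 bound to 5 µg anti-IL-2, which expands Treg cells) for 3 days and killed 48 hours later. The 4 libraries, 2 of each genotype, were made from 80000 nuclei each. Cells of 2 mice were pooled before the sort, and since the sources do not say that each library had its own mice, p-values measure only the spread between these libraries, which may be technical. An IgG library was not analysed here.

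Pol II initiates at promoters, often pauses shortly downstream, and then moves through exons and introns while the transcript is spliced. Setd2 rides on the phosphorylated tail of elongating Pol II and trimethylates lysine 36 of histone H3 (H3K36me3), a mark that builds up over gene bodies and is known to be higher on exons than on introns. Coding exons are short and rich in G and C compared with the introns around them. The comparisons below addressed whether Pol II on coding exons, early or late in genes, differed between Setd2-deficient and control Treg cells.

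The exons under 6 of the peaks with the lowest p-values between genotypes are shown to make the size and base composition of these targets visible. Each is printed 5′ to 3′ on the coding strand from the GRCm38 (mm10) assembly, with the merged coding exon in capitals and 25 bases of each neighbouring intron in lower case.
Dhx38: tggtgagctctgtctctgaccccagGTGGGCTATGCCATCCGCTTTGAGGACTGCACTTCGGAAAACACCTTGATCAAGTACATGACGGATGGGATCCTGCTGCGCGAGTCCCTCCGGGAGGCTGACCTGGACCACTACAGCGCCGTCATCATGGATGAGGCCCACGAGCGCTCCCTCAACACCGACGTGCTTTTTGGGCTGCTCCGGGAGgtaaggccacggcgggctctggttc
Cdk11b: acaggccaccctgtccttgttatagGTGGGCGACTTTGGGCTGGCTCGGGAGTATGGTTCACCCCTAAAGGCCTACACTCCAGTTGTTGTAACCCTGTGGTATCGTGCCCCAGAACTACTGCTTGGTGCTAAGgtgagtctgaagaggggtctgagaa
Traf3ip3: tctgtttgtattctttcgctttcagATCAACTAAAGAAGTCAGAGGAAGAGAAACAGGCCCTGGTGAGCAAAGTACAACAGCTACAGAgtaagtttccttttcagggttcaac
Secisbp2: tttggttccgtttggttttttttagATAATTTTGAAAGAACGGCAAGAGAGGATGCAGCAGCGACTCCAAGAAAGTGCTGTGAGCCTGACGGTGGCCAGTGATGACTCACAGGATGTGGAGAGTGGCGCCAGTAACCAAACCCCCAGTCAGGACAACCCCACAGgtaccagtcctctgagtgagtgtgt
Asb2: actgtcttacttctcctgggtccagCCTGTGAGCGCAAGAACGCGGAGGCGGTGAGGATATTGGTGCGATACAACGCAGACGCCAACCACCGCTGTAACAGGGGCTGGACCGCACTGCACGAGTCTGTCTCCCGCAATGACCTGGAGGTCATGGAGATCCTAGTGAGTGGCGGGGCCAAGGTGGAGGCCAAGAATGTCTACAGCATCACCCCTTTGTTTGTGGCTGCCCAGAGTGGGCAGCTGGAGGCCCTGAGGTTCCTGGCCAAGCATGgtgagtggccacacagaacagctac
Lfng: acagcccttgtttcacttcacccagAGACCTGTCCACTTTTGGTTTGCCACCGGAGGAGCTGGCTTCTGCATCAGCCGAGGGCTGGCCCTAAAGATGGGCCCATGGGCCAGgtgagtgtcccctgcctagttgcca
The Dhx38 exon lies at chr8:109556020-109556205 (186 bp, minus strand, 60.2% G+C). The Cdk11b exon lies at chr4:155648486-155648593 (108 bp, plus strand, 55.6% G+C). The Traf3ip3 exon lies at chr1:193181306-193181368 (63 bp, minus strand, 44.4% G+C). The Secisbp2 exon lies at chr13:51677141-51677279 (139 bp, plus strand, 53.96% G+C). The Asb2 exon lies at chr12:103333292-103333537 (246 bp, minus strand, 60.6% G+C). The Lfng exon lies at chr5:140612760-140612845 (86 bp, plus strand, 61.6% G+C). All 6 were preceded by AG and followed by GT. Of all 1763 exons under the peaks, 93.99% were preceded by AG and 80.2% followed by GT in the same windows, which are the letters of the usual splice sites.

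Coding-exon peaks were mostly wider than the exon at their centre. The median peak was 489 bp long (from 222 to 4300 bp) and the median exon 185 bp, against 124 bp for all 142205 coding exons that the rule could reach. 1201 peaks (68.1%) covered the whole exon with intron on both sides, 330 crossed 1 exon boundary and 232 lay within the exon. Coding sequence made up a median of 47.7% of a peak, so that counts on a coding exon and on the intron beside it could not be told apart for most peaks. The exon belonged to the longest coding transcript of the gene for 1712 peaks, among which 284 were in its last and 101 in its first coding exon. 1038 genes had 1 coding-exon peak, 222 had 2 and 84 had 3 or more. The midpoint fell in the body of more than 1 gene for 152 peaks, and CUT&Tag reads carry no strand to separate them.

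Most of these peaks lay late in their genes. Measured from the 5′ end, 386 peaks were on the 5′ side of the midpoint of the gene and 1369 (78.01%) on the 3′ side, with 8 each lying in 2 overlapping genes that gave different sides. Of other gene-body peaks, 51.6% were on the 3′ side. The coding bases that the rule could reach were also concentrated there (73.2%, with overlapping genes counted on each side), whereas the other reachable gene-body bases were not (51.9%). Per Mb of reachable coding sequence there were 58.8 peaks on the 5′ side and 80.6 in the second, and over 5 equal parts of the gene the density was 41.9, 65.04, 78.2, 77.9 and 81.5 peaks per Mb from the 5′ to the 3′ end. The 5′-most of these parts held 50 peaks. The median peak lay 17.4 kb from the 5′ end and 6.66 kb from the 3′ end of a gene of 28.7 kb.

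**Figure D1:**
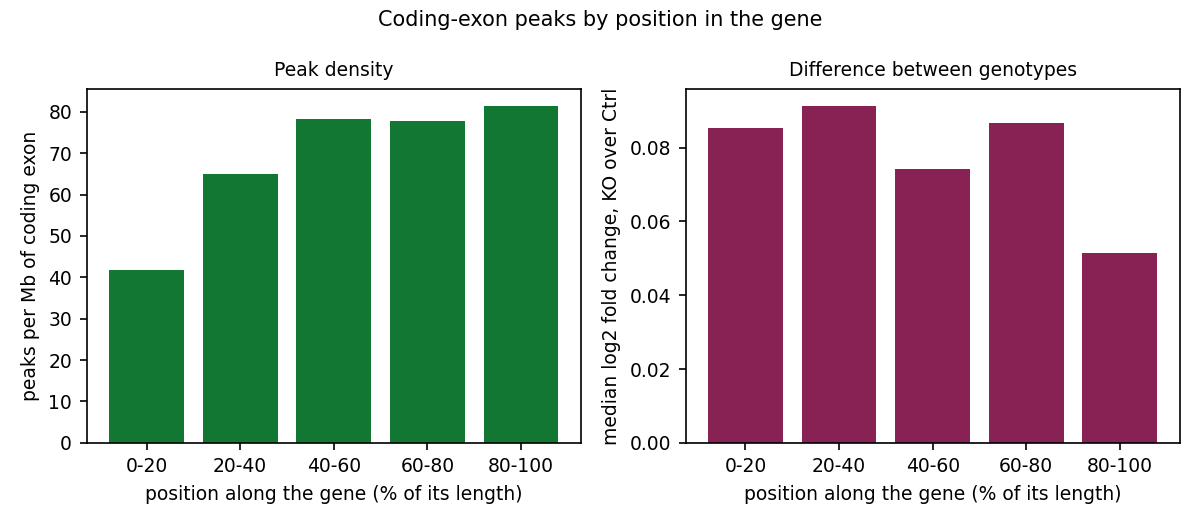
Coding-exon peaks by position along the gene, in 5 equal parts of its length (x axis, percent from the 5′ end): peaks per Mb of reachable coding exon at left and the median log2 fold change of KO over Ctrl at right. Density rose from 41.9 peaks per Mb in the 5′-most part to 81.5 in the 3′-most, while the median log2 fold change was 0.09 and 0.05 there.

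Peak density on coding exons followed base composition. Coding exons held 76.02 peaks per Mb and other gene-body sequence 27.7, a ratio of 2.74. When both were divided by the G+C content of the 500 bases around each position, the density on coding exons rose from 11.4 peaks per Mb where G+C was under 45% to 43.2, 106, 172 and, over 60%, 219 peaks per Mb. In the same bands the ratio of coding exons to other gene-body sequence was 1.24, 1.03, 1.19, 1.13 and 1.67. The excess over introns at like base composition was thus smaller in every band than the 2.74 found without bands. G+C under 45% held 35.9% of the reachable coding bases and 64.9% of the others. These are counts of called peaks in a merged set and were not tested. Density varied less with exon length, from 68.6 peaks per Mb for exons of 101 to 200 bp to 89.04 for exons of 201 to 500 bp, with 77.8 for exons over 1000 bp.

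**Figure D2:**
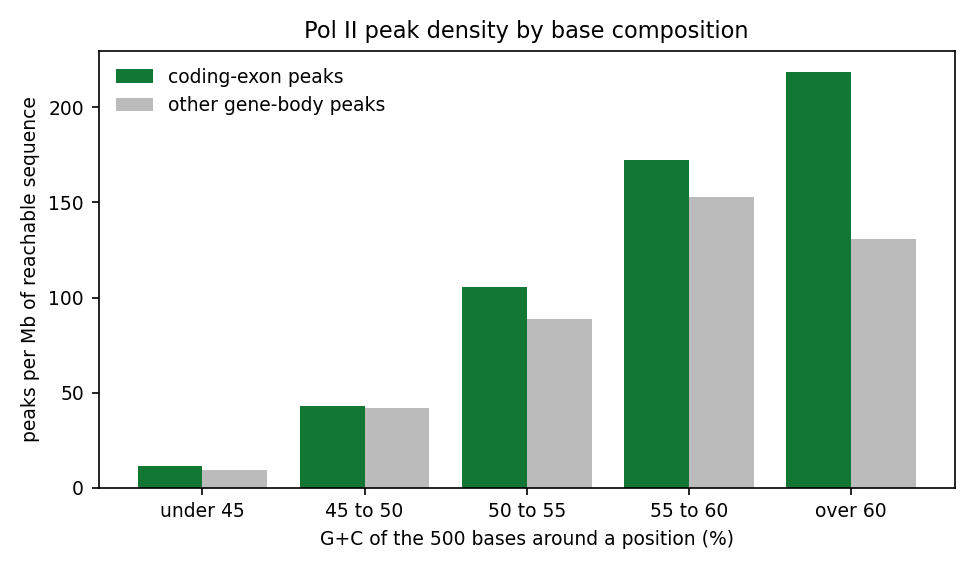
Pol II peaks per Mb of reachable sequence (y axis) by the G+C content of the surrounding 500 bases (x axis), for coding exons and for other gene-body sequence. Both densities climbed with G+C up to 60%, and over 60% coding exons held 219 and other gene-body sequence 131 peaks per Mb.

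Annotated starts outside the basic set lay close to many of these peaks. 485 coding-exon peaks (27.5%) had the TSS of such a transcript within 1 kb, compared with 9.40% of other gene-body peaks. Their level was near that of the remaining 1278, with a median of 105 against 103 normalized counts per kb of peak (the mean of the 4 libraries after DESeq2 size factors), and so was their median log2 fold change of KO over Ctrl (0.10 and 0.06). The part of initiation at such sites in the signal was not tested. Each annotated start is the edge of an exon, so peaks centred on exons can lie nearer to starts by position alone. The 27.5% and 9.40% were not set against the reachable exon and intron bases. Over all coding-exon peaks the median level was 103 normalized counts per kb, close to the 105 of other gene-body peaks, while promoter peaks had 132.

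The 8 coding-exon peaks with the highest level per kb ranged from 308 to 399 normalized counts per kb, and none had an adjusted p under 0.05 between genotypes. The highest lay in Afmid (kynurenine formamidase) at chr11:117831798-117832965 and also in the overlapping gene model Gm20708, so its counts belong to both. The peak on exon 6 of 37 of Akap13, an anchor of protein kinase A, spanned chr7:75609367-75612917 and held normalized counts of 1346 and 1239 (Ctrl) versus 1252 and 1337 (KO). Exon 6 of 9 of Cd101, a surface inhibitor of T cell activation, held 1136 and 1042 (Ctrl) versus 1048 and 1025 (KO). Exon 5 of 6 of Sdf4, a calcium-binding protein of the secretory pathway, held 1022 and 923 (Ctrl) versus 1123 and 1058 (KO), and its peak was 4647 bp from the TSS of Tnfrsf4, which encodes the costimulatory receptor OX40. Exon 5 of 9 of Ikzf4, which encodes Eos, a zinc finger partner of Foxp3, held 157 and 129.5 (Ctrl) versus 185 and 187 (KO). Their log2 fold changes were 0.00 ± 0.18 for Akap13, -0.07 ± 0.18 for Cd101, 0.16 ± 0.19 for Sdf4 and 0.37 ± 0.29 for Ikzf4 (KO over Ctrl ± SE, DESeq2). Others were in Pabpc1l, a poly(A)-binding protein, and Adprhl2, which removes ADP-ribose from proteins, with log2 fold changes of 0.06 ± 0.34 and -0.13 ± 0.41. The Adprhl2 peak was 3212 bp from the TSS of its own gene, near the 3 kb limit. Across the limits of the rule, the included peak closest to a gene end (Cc2d1a, 1005 bp) and the excluded peak nearest to it (Mrpl4, 1000 bp) had mean normalized counts of 83.7 and 119, and the included peak closest to a TSS (Slc41a1, 3010 bp) had 88.1.

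Genes with the most coding-exon peaks were Dnah17 with 9, Fasn and Dock2 with 7 each, and Kmt2d and Helz2 with 6 each. Dnah17 encodes a dynein heavy chain of cilia and flagella with 81 coding exons in its longest transcript, and its summed normalized counts were 765 and 899.7 (Ctrl) versus 836 and 915 (KO). Fasn, the fatty acid synthase, held 697 and 920.4 (Ctrl) versus 802 and 1150 (KO), and Dock2, a Rac activator needed for lymphocyte migration, held 801 and 810.2 (Ctrl) versus 751 and 802 (KO). Kmt2d, an H3K4 methyltransferase of enhancers, held 443 and 343 (Ctrl) versus 436 and 456 (KO), and Helz2, a helicase coactivator of nuclear receptors, 840.3 and 916 (Ctrl) versus 1006 and 1049 (KO). The groups overlapped in Dnah17, Fasn, Dock2 and Kmt2d, and both KO libraries lay above both Ctrl libraries in Helz2. The log2 fold changes of these sums were 0.07 ± 0.18, 0.27 ± 0.22, -0.05 ± 0.17, 0.18 ± 0.22 and 0.23 ± 0.17 in the same order, and each had an adjusted p-value of 1.000 by DESeq2.

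The libraries differed in depth by number as well as by genotype. Ctrl 1 held 11331274 counts and Ctrl 2 5624680, while KO 1 held 13351007 and KO 2 4489646, and in that order the median count of a coding-exon peak was 66, 40, 86 and 35. All 1763 peaks had a mean of at least 10 raw counts and 1763 had a count in every library. Across the coding-exon peaks, log2 normalized counts correlated with a Pearson r from 0.812 to 0.939 between libraries, the highest between Ctrl 1 and KO 1, the deepest 2, over peaks that are not independent replicates. All 8 Treg markers had peaks, Foxp3 among them (169 and 143 normalized counts per kb in Ctrl, 164 and 142 in KO). Cd4, Cd3e and Cd3g of this set are shared with conventional CD4 T cells, for which no marker set was compared. None of 5 CD8 T and NK cell markers had a peak, nor did 4 of 7 B cell markers (Ms4a1, Pax5 and Cd22 among them), Lyz2, Csf1r, Itgam, Adgre1 and Mpo of 7 myeloid markers, or Gata1, Hba-a1, Hbb-bs and Alas2 of 6 erythroid markers. The summed levels of the other markers were 253 to 313 normalized counts per kb in Ctrl and 219 to 257 in KO for B cells, 265 to 370.4 and 213 to 314 for myeloid cells, and 223 to 237 and 239 to 246 for erythroid cells, against 1250 to 1422 and 1355 to 1413 for Treg cells. These sums cover 3 B cell, 2 myeloid and 2 erythroid markers against 8 Treg markers, so they do not compare levels per marker. Spi1 (123 and 133 in Ctrl, 128 and 138 in KO) and Klf1 (150 and 135 in Ctrl, 156 and 129 in KO) were near Foxp3. Cd79a, Cd79b, Blk and Epor were below Foxp3 in every library, and Cd14 varied (143 and 237 in Ctrl, 84.2 and 176 in KO). In such bulk nuclei, fewer cells with Pol II on an exon and less Pol II per cell cannot be told apart.

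The share of all counts in coding-exon peaks differed less between genotypes than between replicates. The share was 1.69 (Ctrl 1), 1.93 (Ctrl 2), 1.81 (KO 1) and 2.05 (KO 2), in percent of the counts in all peaks, and its 95% Wilson intervals, which cover counting error only, were no wider than 2.03 to 2.06% (KO 2). Ctrl averaged 1.81% ± 0.166 and KO 1.93% ± 0.168 (SD, n = 2 each), a difference of 0.119 percentage points (two-sided exact permutation p = 0.667, where 2 against 2 libraries cannot go below 0.333). Library 2 exceeded library 1 by 0.235 points in Ctrl and 0.237 points in KO. Between the deeper libraries of each genotype KO was higher by 0.117 points and between the shallower ones by 0.120 points. Other gene-body peaks took 26.05 (Ctrl 1), 27.4 (Ctrl 2), 26.6 (KO 1) and 28.01 (KO 2) percent, and the log2 ratio of coding-exon to other gene-body counts was -3.95 (Ctrl 1), -3.83 (Ctrl 2), -3.88 (KO 1) and -3.78 (KO 2), with a KO minus Ctrl difference of 0.06 (exact permutation p = 0.667).

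The balance of Pol II between late and early coding exons differed between genotypes by less than between replicates. The log2 ratio of 3′-side to 5′-side counts was 1.78 (Ctrl 1), 1.85 (Ctrl 2), 1.75 (KO 1) and 1.83 (KO 2). The difference, KO minus Ctrl, was -0.02 (mean and SD of 2 libraries 1.81 ± 0.05 for Ctrl, 1.79 ± 0.05 for KO, exact permutation p = 0.667) and turned to 0.01 without Ctrl 2 and 0.01 without KO 1. In other gene-body peaks the ratio was -0.05 (Ctrl 1), 0.07 (Ctrl 2), 0.02 (KO 1) and 0.13 (KO 2), a difference of 0.07 in the opposite direction (exact permutation p = 0.667). Over the 1212 genes with both kinds of peak, the log2 ratio of coding-exon to promoter counts was -2.35 (Ctrl 1), -2.09 (Ctrl 2), -2.24 (KO 1) and -1.97 (KO 2). Its difference of 0.12 was smaller than the 0.26 between Ctrl libraries and the 0.26 between KO libraries (exact permutation p = 0.667), and it turned to -0.01 without Ctrl 1 and -0.02 without KO 2.

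**Figure D3:**
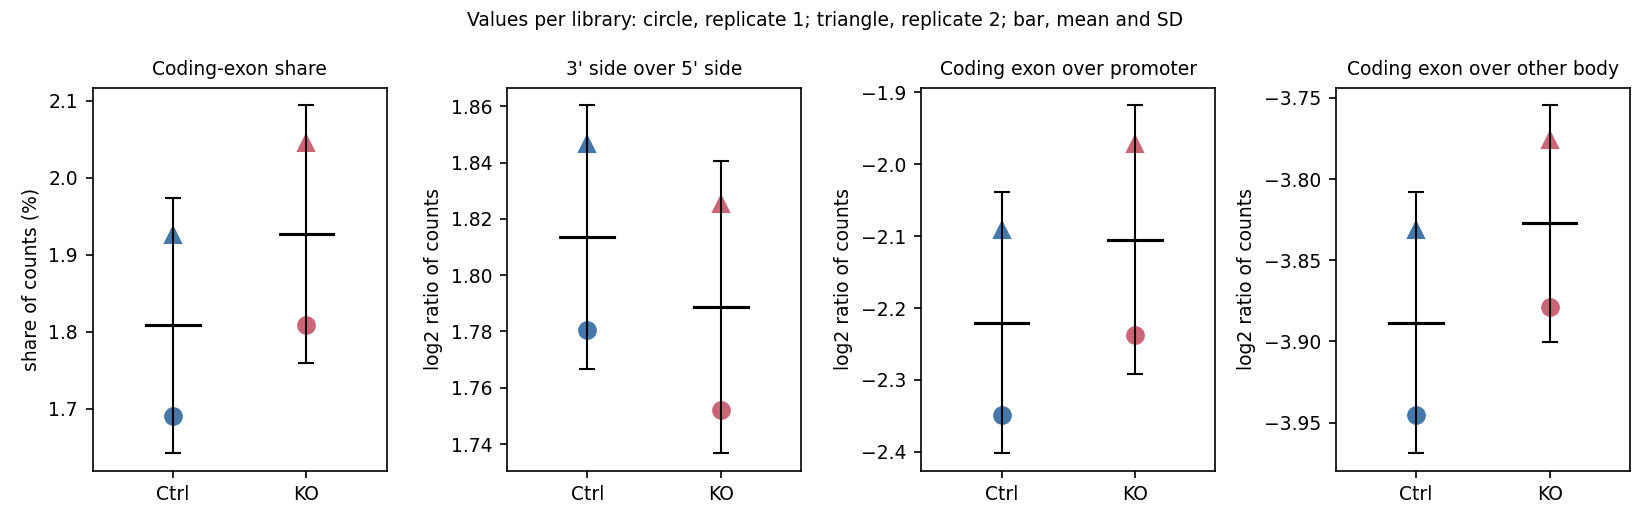
Values per library for the coding-exon share of counts and for 3 log2 ratios of summed counts (y axes), by genotype (x axis), with the mean and SD of 2 libraries. In the share, KO 1 (1.81%) lay below Ctrl 2 (1.93%), and the genotypes overlapped in all 4 measures.

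No coding-exon peak passed the adjusted threshold between genotypes. By the DESeq2 Wald test with Benjamini-Hochberg adjustment over all 56615 peaks, 0 coding-exon peaks had an adjusted p-value under 0.05, as had 0% of all peaks. At an unadjusted p under 0.05, 26 of 1763 (1.47%) were higher in KO, against 0.862% of all peaks, and 14 (0.794%) were lower, against 0.664%. edgeR's quasi-likelihood test called 2 coding-exon peaks (0.113% of them), that in Dhx38 among them, where it called 0.0477% of all peaks. At an unadjusted edgeR p under 0.05, 60 (3.40%) were higher, against 1.93% of all peaks, and 20 (1.13%) lower, against 1.7%. Both KO libraries lay on one side of both Ctrl libraries in 600 coding-exon peaks (34.03%), beside 32.3% of all peaks. Of these, 372 (21.1% of coding-exon peaks, against 16.2% of all peaks) were higher and 228 (12.9%, against 16.1%) lower in KO. Leaving out 1 library gave 11 or 17 (Ctrl 1 or Ctrl 2 left out) and 22 or 8 (KO 1 or KO 2 left out) coding-exon peaks at an unadjusted DESeq2 p under 0.05 in either direction, against 40 with all 4 libraries.

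The median of the coding-exon peaks lay slightly above 0. Their median log2 fold change was 0.07 (quartiles -0.18 and 0.34), beside 0.01 for other gene-body peaks, -0.02 for promoter peaks and -0.01 for all peaks, and 1027 (58.3%) were above 0. The median was 0.10 on the 5′ side of genes and 0.06 in the second. Of the 386 5′-side peaks, 10 (2.59%) were higher and 2 (0.518%) lower at an unadjusted p under 0.05. Of the 1369 3′-side peaks, 16 (1.17%) were higher and 12 (0.877%) lower. Over all peaks the shares were 0.862% and 0.664%. In other gene-body peaks they were 0.763% and 0.735% on the 5′ side and 1.23% and 0.523% on the 3′ side. The median of all coding-exon peaks depended on single libraries, and leaving each out in turn gave medians of 0.03 when Ctrl 1 was dropped, 0.16 when Ctrl 2 was, 0.14 when KO 1 was and -0.01 when KO 2 was. Scaling by total counts moved it to 0.10 while the median of all peaks became 0.02. The median log2 ratio of library 2 to library 1 was larger, at 0.18 within Ctrl and 0.17 within KO, where other gene-body peaks had 0.06 and 0.06.

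Base composition differed between the kinds of peak. The median G+C content was 55.4% in coding-exon peaks, 49.4% in other gene-body peaks and 51.1% in all peaks, and CpG dinucleotides came to 2.12, 1.14 and 1.40 per 100 bases. Within bands of peak G+C, the median KO over Ctrl log2 fold change was -0.00 for coding-exon and -0.07 for other gene-body peaks under 45%, 0.11 and 0.00 at 45 to 50%, 0.09 and 0.03 at 50 to 55%, 0.07 and 0.05 at 55 to 60%, and 0.04 and 0.05 over 60%. The medians of both kinds were closest where G+C was 55% or more. The ratio of Ctrl 2 to Ctrl 1 over coding-exon peaks went from -0.17 (median log2) where G+C was under 45% to 0.22 at 55 to 60%, and that of KO 2 to KO 1 from -0.23 to 0.24. Over 60% G+C these 2 ratios were lower again, at 0.18 and 0.13. The part of base composition in the difference between genotypes was not tested.

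**Figure D4:**
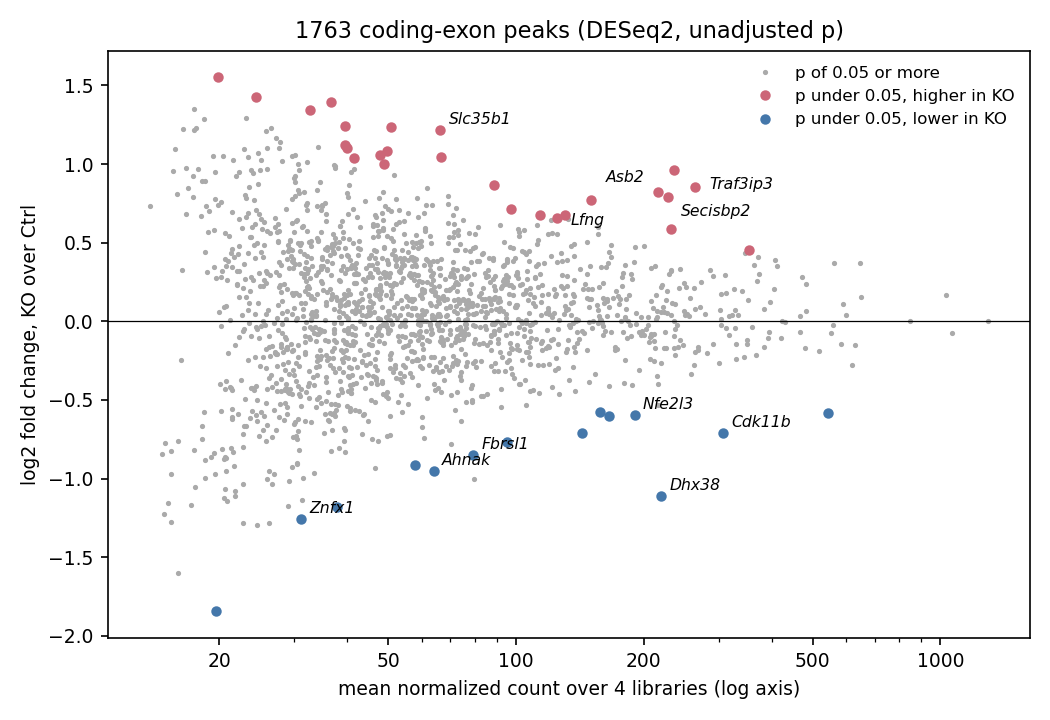
Log2 fold change of KO over Ctrl (y axis) against the mean normalized count of 4 libraries (x axis, log scale) for 1763 coding-exon peaks, with the 26 higher and 14 lower peaks at an unadjusted DESeq2 p under 0.05 in colour and 11 peaks named. The scatter is widest among low peaks, and Dhx38 lies at -1.11.

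Among peaks with lower counts in KO, Dhx38 had the lowest p-value. Dhx38 encodes a DEAH-box helicase of the spliceosome (PRP16), and its coding-exon peak, on exon 13 of 26 at chr8:109554796-109557395, held normalized counts of 261 and 339 (Ctrl) versus 123 and 157 (KO). Each KO library was below each Ctrl library, at a log2 fold change of -1.11 ± 0.28 (DESeq2 adjusted p = 0.717). edgeR gave the same peak an adjusted p of 0.00287 in the fit of all peaks. The fit of gene sums holds the same counts for this exon, and there edgeR gave an adjusted p of 0.389. The promoter peak of Dhx38 held 324 and 314 (Ctrl) versus 132 and 152 (KO), with a log2 fold change of -1.18 ± 0.25 and a DESeq2 adjusted p of 0.00809 over gene sums, and its 5 other gene-body peaks had -0.91 ± 0.22 and 0.0785. edgeR called neither sum, with adjusted p-values of 0.111 for the promoter and 0.438 for the other gene-body peaks. The sums at the promoter and in the rest of the gene were thus at fold changes comparable with that of the exon. A position shared by genes counted for each of them, and CUT&Tag reads carry no strand. The promoter counts may therefore include Pol II of a neighbouring gene that starts nearby, which was not tested.

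Cdk11b, a cyclin-dependent kinase linked to transcription and splicing, had a peak on exon 15 of 19 at chr4:155647427-155649590 with normalized counts of 311 and 452 (Ctrl) versus 197 and 273 (KO) and a log2 fold change of -0.71 ± 0.28. It lay 3101 bp from the TSS of Gm10563, just outside the 3 kb limit. The Cdk11b promoter sum had a log2 fold change of -0.46 ± 0.18 and an adjusted p of 1.000 by DESeq2. The 6 other gene-body peaks of Cdk11b summed to 1362 and 1394 (Ctrl) versus 971 and 923 (KO). That sum had a log2 fold change of -0.54 ± 0.16, with an adjusted p of 0.485 by DESeq2 and 0.551 by edgeR. In Ahnak, a giant scaffold protein whose coding exon of 16623 bp carried 3 of the peaks, the peak at chr19:9004947-9005804 held 96.3 and 73.02 (Ctrl) versus 50.5 and 35.8 (KO) (log2 fold change -0.95 ± 0.43). Nfe2l3, a CNC transcription factor, held 229 and 231 (Ctrl) versus 167 and 135 (KO) on its last coding exon, and Fbrsl1, a relative of the Polycomb-linked protein AUTS2, held 119 and 85.4 (Ctrl) versus 65.9 and 45.98 (KO) on its last. Znfx1, a helicase of the antiviral response, held 38.1 and 49.6 (Ctrl) versus 17.8 and 18.7 (KO) on exon 13 of 13. The log2 fold changes were -0.59 ± 0.28 for Nfe2l3, -0.85 ± 0.40 for Fbrsl1 and -1.26 ± 0.58 for Znfx1, and these 5 peaks had a DESeq2 adjusted p of 1.00. Znfx1 had 2 coding-exon peaks, which summed to 69.0 and 74.4 (Ctrl) versus 43.4 and 52.8 (KO). That sum had a smaller log2 fold change of -0.59 ± 0.42.

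Of the peaks with higher counts in KO that are named here, the one in Traf3ip3 had the lowest p-value. Traf3ip3, an adaptor of TRAF3 that shapes lymphocyte signalling, held normalized counts of 192 and 182 (Ctrl) versus 296 and 385 (KO) on exon 11 of 14 at chr1:193180520-193182109. Both KO libraries exceeded both Ctrl libraries, at a log2 fold change of 0.85 ± 0.26. The 5 other gene-body peaks of Traf3ip3 summed to 983 and 819.8 (Ctrl) versus 1282 and 1211 (KO), a log2 fold change of 0.47 ± 0.17 with a DESeq2 adjusted p of 1.000.

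Secisbp2, which binds the RNA element that directs selenocysteine insertion, held normalized counts of 167 and 167 (Ctrl) versus 284 and 295 (KO) on exon 12 of 17 at chr13:51676608-51677861, and the replicates of each genotype lay close together. Asb2, a substrate receptor of a Cullin ubiquitin ligase found in haematopoietic cells, held 158 and 152 (Ctrl) versus 225 and 329 (KO) on exon 5 of 9 at chr12:103333114-103333903. Slc35b1, a transporter that supplies ATP to the endoplasmic reticulum, held 34.5 and 45.5 (Ctrl) versus 79.6 and 106 (KO), and Lfng, a glycosyltransferase that modifies Notch receptors, held 105 and 118 (Ctrl) versus 206 and 172 (KO). The log2 fold changes were 0.79 ± 0.26 for Secisbp2, 0.82 ± 0.28 for Asb2, 1.21 ± 0.42 for Slc35b1 and 0.77 ± 0.30 for Lfng. Slc35b1 and Secisbp2 each had 2 coding-exon peaks, and the log2 fold changes of their sums were smaller, at 0.57 ± 0.28 and 0.68 ± 0.23. The peaks in Traf3ip3, Secisbp2, Asb2, Slc35b1 and Lfng had a DESeq2 adjusted p of 1.00. The Asb2 promoter sum was 635 and 617 (Ctrl) versus 781 and 879 (KO), with both KO libraries above both Ctrl libraries, and had a log2 fold change of 0.40 ± 0.18. Those of Traf3ip3, Secisbp2, Slc35b1 and Lfng had log2 fold changes of 0.10 ± 0.18, 0.08 ± 0.20, -0.17 ± 0.20 and -0.06 ± 0.19, and all 5 promoter sums had a DESeq2 adjusted p of 1.00.

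**Figure D5:**
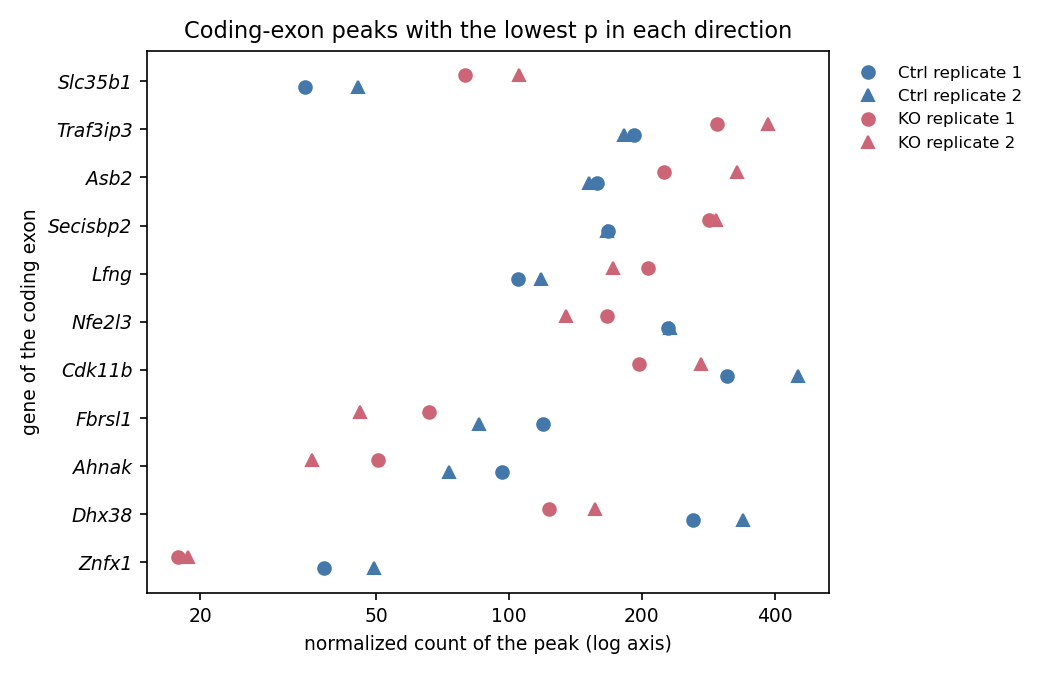
Normalized counts (x axis, log scale) of 11 coding-exon peaks among those with the lowest unadjusted p in each direction (y axis, by gene), with 1 point per library. The genotypes do not overlap in any of the 11 by the rule that chose them, and the widest gap on this axis is in Znfx1, from 18.7 in KO 2 to 38.1 in Ctrl 1.

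Counts were next summed over the coding-exon peaks of each gene and fitted beside promoter and other gene-body sums. None of 1344 genes passed for coding exons by DESeq2 (0 calls, against 0.0397% of all 17650 sums), and the lowest adjusted p was 0.0712, for Dhx38. At an unadjusted p under 0.05, 23 genes (1.71%) were higher in KO on coding exons, against 1.19% of all sums, and 10 (0.744%) lower, against 1.11%. edgeR called 0 genes on coding exons and 0 of all sums, and 55 genes (4.09%) had an unadjusted edgeR p under 0.05, against 3.9% of all sums. In the 963 genes with all 3 kinds of peak, the median log2 fold change was 0.05 on coding exons, 0.02 in the rest of the body and -0.03 at the promoter. The coding-exon value exceeded the promoter value in 592 of these genes (61.5%). The median over all sums was -0.02.

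With at least 2 coding-exon peaks, the genes with the lowest p-values on the higher side included Secisbp2, Mtmr3 and Prpf8. Mtmr3, a phosphatase of phosphoinositides, held normalized counts of 156 and 183 (Ctrl) versus 232 and 313 (KO) over 3 peaks, and Prpf8, the core protein of the spliceosome's catalytic centre, held 346 and 411 (Ctrl) versus 478 and 608 (KO) over 4. Both KO libraries exceeded both Ctrl libraries in all 3 genes, and the log2 fold changes of the sums were 0.68 ± 0.23, 0.68 ± 0.27 and 0.52 ± 0.22 in the order named. On the lower side were Ahnak (Ctrl 289 and 168, KO 159 and 78.3), Spg11, a protein of lysosome recycling (Ctrl 173 and 209, KO 141 and 109), Spty2d1, a histone chaperone (Ctrl 290.4 and 274, KO 228 and 170.3), and Bcl11b, a zinc finger factor of T cell identity (Ctrl 518 and 576, KO 433 and 458). Their log2 fold changes were -0.92 ± 0.36, -0.59 ± 0.29, -0.49 ± 0.25 and -0.30 ± 0.20. These 7 genes had DESeq2 adjusted p-values of at least 0.980. Leaving out 1 library moved the Ahnak sum between -1.56 and -0.47.

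Whether the 3′ side of a gene moved differently from its 5′ side was tested within genes that had coding-exon peaks on both sides. Of 103 such genes, 0 passed the DESeq2 interaction test and 2 had an unadjusted p under 0.05, where 0.948% of all 2216 rows did. The median interaction (the log2 fold change of the 3′ side minus that of the 5′ side) was -0.04 for coding exons and 0.06 over all rows. The 2 genes, named after their values were seen, were Anxa6, a calcium-dependent membrane-binding annexin, and Dock8, a Cdc42 activator required for T cell migration. In Anxa6 the 5′-side peak held 50.3 and 39.96 normalized counts in Ctrl and 56.4 and 98.8 in KO, and the 3′ side 647 and 779.8 (Ctrl) versus 591 and 686 (KO). In Dock8 the 5′ side held 15.8 and 28.9 (Ctrl) versus 61.2 and 30.7 (KO), and the 3′ side 236 and 366 (Ctrl) versus 252 and 320.2 (KO). Both interactions (-0.84 ± 0.42 and -1.17 ± 0.56, adjusted p = 1.00 by DESeq2) rested on a single peak on the 5′ side of each gene. Genes with at least 2 coding-exon peaks on each side and the highest counts had interactions of -0.02 ± 0.32 for Helz2, 0.29 ± 0.33 for Fasn, -0.20 ± 0.34 for Dnah17 and 0.12 ± 0.38 for Tmc6, a regulator of zinc transport.

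Coding-exon peaks lay in 1344 genes, while 10999 genes had a promoter sum. Genes of Treg identity and effector function carried 16 of the coding-exon peaks, in 10 of 38 genes. Their median log2 fold change was 0.14, beside 0.07 for all coding-exon peaks, and with a library left out it ran from 0.05 without KO 2 to 0.31 without KO 1. Of the peaks, 12 were above 0 and 0 reached an unadjusted p under 0.05. Over all peaks, 0.862% were higher and 0.664% lower at that threshold, a background that also applies to the lists below. Stat5a and Stat5b, which carry the IL-2 signal, had the most counts of the list, with sums of 417 and 530.5 (Ctrl) versus 420.0 and 605 (KO) for Stat5a and 250.1 and 292 (Ctrl) versus 312 and 218 (KO) for Stat5b, and the genotypes overlapped in both. One exon of each pair of peaks is nearly the same in the 2 paralogs, with 3 differing bases of 207 and a longest identical run of 89. Fragments that lie within such a run are uncertain between the genes. Reads were 150 bp before trimming, and the authors kept uniquely mapped ones. The 2 exons are shown for comparison, in capitals, with the intron flanks in lower case, from chr11:100879611-100879817 (plus strand) and chr11:100790747-100790953 (minus strand).
Stat5a: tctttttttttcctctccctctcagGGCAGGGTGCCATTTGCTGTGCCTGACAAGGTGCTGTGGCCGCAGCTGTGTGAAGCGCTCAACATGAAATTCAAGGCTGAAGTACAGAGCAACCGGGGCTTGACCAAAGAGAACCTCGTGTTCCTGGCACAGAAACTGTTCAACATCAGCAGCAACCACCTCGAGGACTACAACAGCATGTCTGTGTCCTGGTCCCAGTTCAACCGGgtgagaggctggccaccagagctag
Stat5b: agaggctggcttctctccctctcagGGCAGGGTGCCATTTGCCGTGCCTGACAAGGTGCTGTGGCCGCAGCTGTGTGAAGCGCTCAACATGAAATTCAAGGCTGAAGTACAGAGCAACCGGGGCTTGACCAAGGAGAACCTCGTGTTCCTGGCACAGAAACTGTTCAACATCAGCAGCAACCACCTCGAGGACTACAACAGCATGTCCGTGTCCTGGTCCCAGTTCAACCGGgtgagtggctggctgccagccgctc
The peaks held normalized counts of 268 and 389 (Ctrl) versus 280.4 and 395 (KO) for Stat5a and 49.6 and 77.2 (Ctrl) versus 62.4 and 64.7 (KO) for Stat5b.

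In the T cell receptor and kinase signalling list, 24 peaks in 17 of 37 genes had a median log2 fold change of 0.05, which ran from -0.06 without KO 1 to 0.14 without Ctrl 2, and 2 were higher and 0 lower at an unadjusted p under 0.05. One of the higher peaks was in Ptpn6, the phosphatase SHP-1 that restrains receptor signalling (Ctrl 72.6 and 74.4, KO 114 and 128). Cd3d, a subunit of the T cell receptor complex, had the highest counts of the list (Ctrl 867 and 827, KO 870.4 and 823), on an exon outside its longest coding transcript, and its log2 fold change was 0.00 ± 0.19. The cytoskeleton and motility list had 34 peaks in 13 of 30 genes, a median of -0.04 (-0.07 without Ctrl 1 to 0.05 without Ctrl 2) and 2 lower peaks, in Ahnak and in the actin and microtubule linker Macf1 (Ctrl 17.3 and 44.1, KO 7.13 and 10.2). Dock2 and Dock8, the highest of that list, had sums with log2 fold changes of -0.05 ± 0.17 and 0.04 ± 0.26.

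Chromatin genes were the largest of these lists by peaks. There were 55 peaks in 24 of 37 genes, with a median log2 fold change of 0.12 that ran from -0.03 without KO 2 to 0.05 without KO 1. Arid1a, a subunit of the BAF remodelling complex, held normalized counts of 559 and 624 (Ctrl) versus 573 and 609.7 (KO), and Kdm2a, a demethylase of H3K36me2, held 529.8 and 463 (Ctrl) versus 471 and 439 (KO), part of it on an exon outside its longest coding transcript. The genotypes overlapped in Arid1a and Kdm2a. The peak at an unadjusted p under 0.05 was in Chd4, the remodelling ATPase of the NuRD complex (Ctrl 31.6 and 31.7, KO 60.6 and 74.9). Setd2 itself had 1 coding-exon peak, on exon 15 of 21 at chr9:110594147-110594401, with normalized counts of 21.6 and 12.4 (Ctrl) versus 25.5 and 39.2 (KO) and a log2 fold change of 0.87 ± 0.66 (DESeq2 adjusted p = 1.00). The exons removed by Cre are not given in the sources used here, and Pol II can transcribe a deleted allele, so the peak does not check the genotype. The Setd2 promoter held 229 and 192 (Ctrl) versus 211 and 237 (KO).

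Splicing factors had 21 peaks in 13 of 32 genes and a median log2 fold change of 0.08, which ran from 0.04 without KO 2 to 0.18 without Ctrl 2. The lower peak was in Dhx38, and the 2 higher peaks were in Sf3b2, a subunit of the U2 particle (Ctrl 34.5 and 26.2, KO 51.7 and 78.3), and Hnrnpu, a nuclear matrix RNA-binding protein (Ctrl 20.1 and 5.51, KO 39.8 and 32.4). Son, a scaffold of nuclear speckles, had the most counts, 843 and 843 (Ctrl) versus 860.3 and 916 (KO), over a peak pair on 1 exon of 5970 bp. Genes of Pol II, elongation and termination had 7 peaks in 4 of 30 genes and a median of -0.20, which ranged from -0.58 without KO 2 to 0.17 without KO 1. Supt6, the elongation factor SPT6 that binds Pol II and histones, held 61.1 and 74.4 (Ctrl) versus 61.8 and 71.5 (KO), and Aff1, a scaffold of the super elongation complex, held 120.0 and 135 (Ctrl) versus 87.3 and 135 (KO). Cell cycle genes had 3 peaks in 2 of 32 genes and a median of 0.04 (-0.09 without Ctrl 1 to 0.29 without Ctrl 2), in the replicative helicase subunits Mcm2 (Ctrl 17.3 and 33.1, KO 14.3 and 28.95) and Mcm4 (Ctrl 101 and 131, KO 158 and 114). Neither the elongation nor the cell cycle list had a peak at an unadjusted p under 0.05.

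Coding-exon peaks were then read by whether the mRNA of the gene was listed by the study as higher or lower in KO, in large-intestinal (LI) or splenic (SP) Treg cells, using only the gene names from its RNA-seq lists. The study chose those genes at its own threshold of p under 0.05. It describes no IL-2c treatment for the RNA-seq mice, so the lists differ from the Pol II libraries in treatment and, for LI, in tissue. Genes with higher LI mRNA had 92 coding-exon peaks with a median log2 fold change of 0.21 (66.3% above 0), and genes with higher SP mRNA had 186 with 0.15 (70.4%). Genes with lower LI mRNA had 89 with 0.04 and genes with lower SP mRNA 114 with 0.01, against 0.07 and 58.3% for all coding-exon peaks. At an unadjusted p under 0.05, the higher lists had 5 (LI) and 5 (SP) peaks higher in KO and 0 lower. The lower lists had 1 higher and 3 lower for LI, and 0 higher and 3 lower for SP. Over all peaks, 0.862% were higher and 0.664% lower at that threshold. Asb2 was among the higher peaks of both higher lists, with Gmfg, a regulator of actin branching (Ctrl 303 and 292, KO 378 and 439), so the LI and SP counts are not separate. Dhx38 and Ahnak were among the lower peaks of both lower lists. The LI and SP higher lists shared 42 peaks, 45.7% of the first and 22.6% of the second. Without each library in turn the medians ran from 0.16 to 0.28 for LI higher, 0.07 to 0.22 for SP higher, -0.11 to 0.12 for LI lower and -0.09 to 0.09 for SP lower. Other gene-body peaks of the same genes had medians of 0.13, 0.09, -0.12 and -0.09 in that order.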

How the data were processed

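The authors trimmed the reads, mapped them to mm10 with Bowtie2, kept unique reads, removed duplicates, called peaks with MACS2 against IgG at p 0.01 and merged them with bedtools, and versions are not given in the sources used here. The deposited table holds raw counts per merged peak. Peaks were selected on the libraries compared, so levels were compared within peaks. Peaks were joined to GENCODE vM21 (GRCm38) by midpoint, a position shared by genes counting for each. KO was compared with Ctrl by DESeq2 1.42.0 (R 4.3.3), the study's tool, over all 56615 peaks, over sums per gene and kind of peak, and over the 2 sides of gene midpoints (library, side and their interaction with genotype), with size factors 1.39, 0.726, 1.68 and 0.587 for Ctrl 1, Ctrl 2, KO 1 and KO 2. edgeR 4.0.16, total-count scaling, a count minimum of 10, a replicate block, thinning to equal totals, each library left out and 4 stricter definitions were alternatives. Scripts were tested on simulated data. Shares and ratios were tested by exact permutation. The coding-exon peaks and gene lists were chosen with earlier results of these data known.

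Named peaks and genes followed 1 rule. It took the 6 peaks per direction with the lowest DESeq2 p at a mean of at least 20 normalized counts and no overlap between genotypes, and the 8 peaks with most counts per kb. It also took the 5 genes with most peaks, the 2 genes with most counts per list, the 4 genes with most counts and at least 2 peaks on each side, and the 4 genes per direction with the lowest p over at least 2 peaks. Setd2 was named in any case, and other list peaks at an unadjusted p under 0.05 were named after their values were seen. Results for some genes that the rule chose are not reported here.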

Additional observations from a re-analysis of the deposited data

How the results depend on the processing

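The count of coding-exon peaks called, 0 by DESeq2, became 2 with edgeR (Dhx38 among them) and 1 with the replicate block (Dhx38), and 0 to 1 when a library was left out. The 1 call, without Ctrl 2, was Cdk5rap1, an RNA-modifying enzyme whose peak at chr2:154361338-154362359 held 27.3 and 310.0 (Ctrl) versus 169 and 194 (KO) normalized counts, with Ctrl 1 far below the other 3 libraries. Fits without 1 library assume that the lone sample varies like the other group. Genes called on summed coding-exon peaks went from 0 to 1 with the replicate block, and ranged from 0 to 1 over the left-out libraries (1 without Ctrl 2). Total-count scaling, the count minimum of 10 (which removed no coding-exon peak), thinning and all 4 stricter definitions left both counts at 0, and the 0 interactions by side also stayed at 0 under every alternative run for them. The median log2 fold change of coding-exon peaks was 0.07, ranged from -0.01 to 0.16 over the left-out libraries and reversed to -0.0147 without KO 2. The KO minus Ctrl difference of the coding-exon share ranged from 8.02e-05 to 0.237 percentage points with a library left out. The 3′-side to 5′-side log2 ratio ranged from -0.0617 to 0.0118 and reversed to 0.00820 without Ctrl 2 and 0.0118 without KO 1. The coding-exon to promoter log2 ratio ranged from -0.0169 to 0.25 and reversed to -0.0130 without Ctrl 1 and -0.0169 without KO 2. The coding-exon to other gene-body log2 ratio, added after seeing the data, ranged from 0.00442 to 0.118. The other alternatives kept the direction of these 4 measures, and the cause of the reversals was not tested. Same-number libraries deviated together over all peaks (r = 0.233) and over coding-exon peaks (r = 0.103). They also resembled each other in depth, both number 1 libraries being deeper than both number 2 libraries. With 2 pairs and no label that ties the numbers, whether they were prepared together is not known. The replicate block gave differences of 0.119 points for the share, -0.02 and 0.12 for the side and promoter log2 ratios, and 0.07 for the median log2 fold change. In the same fit the gene sums named in the text that passed were those of Dhx38 (adjusted p = 0.00606 on the coding exon, 0.00183 at the promoter and 4.26e-04 in the rest of the body) and the other gene-body sums of Cdk11b (adjusted p = 0.00248) and Traf3ip3 (adjusted p = 0.0375), by DESeq2 with the replicate block. Depth limits low peaks most, and 2 against 2 libraries limit every comparison.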
